A study of Mus musculus with 18 samples.

Results

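A group of 9 well-known long non-coding RNA genes was followed through mouse brain cells in culture and the small extracellular vesicles (sEVs) that these cells release. The genes were picked by name from a table of 17714 gene labels. They were 5 RNAs grouped as nuclear (Malat1, Neat1, Meg3, Rian and Miat) and 4 grouped as cytoplasmic (Norad, Gas5, Snhg1 and Snhg11). Where the RNAs lay in these cells was not measured here. All 9 genes were found, with 217 isoforms and 74287 of the 10234812 reads of the table, which is 0.726% of all reads. The data are full-length cDNA reads made on the PacBio long-read platform, counted per isoform, from polyadenylated RNA. There were 6 groups with n = 3 libraries each: astrocyte cells, microglia cells and neuron cells from primary mouse brain culture, and the sEVs of each culture. No strain, genotype, treatment or age is given in the labels. The series was set up to ask whether vesicles take up RNA in a way that depends on the cell type.

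Long non-coding RNAs carry no protein and act, where a function is known, through the place they occupy and the proteins they hold. Malat1 sits in nuclear speckles, the stores of splicing factors, and its primary transcript releases a small tRNA-like RNA from its 3′ end. Neat1 is the scaffold of the paraspeckle, a nuclear body built on a few RNA-binding proteins. Meg3 and Rian come from the maternal copy of the imprinted Dlk1-Dio3 locus and Miat from a gene active in neural tissue. Norad is a repeat-rich cytoplasmic RNA that binds the Pumilio proteins, which otherwise repress messenger RNAs. Gas5, Snhg1 and Snhg11 are host genes: their introns hold small nucleolar RNAs (snoRNAs), and they were grouped here with the cytoplasmic RNAs. Spliced Gas5 is known to be engaged by ribosomes and removed by nonsense-mediated decay, and it starts with a terminal oligopyrimidine (TOP) tract, a run of C and T that ties translation to growth signals.

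The libraries held between 434298 and 683381 reads. Levels are given as CPM (reads scaled to a common library total) after TMM scaling of the library sizes, as mean ± SD over 3 libraries. The labels place all cell libraries in 1 sequencing pool and all sEV libraries in the other, so vesicle origin and pool cannot be told apart. The smallest value above 0 in the table is 2, so a 0 can hide single reads of an isoform. Ftl1, the ferritin light chain gene, took between 14.9% and 31.5% of the reads of each astrocyte and neuron sEV library and at most 6.94% of any other library, and its part in the results was not tested. The 7 astrocyte markers summed to 24331 ± 1334 RPM (reads scaled to the plain library total) in astrocyte cells, the 7 microglia markers to 1738 ± 90.5 in microglia cells and the 7 neuron markers to 4945 ± 500.2 in neuron cells. Neuron cells also held 3206 ± 245 RPM of astrocyte markers (7 of 7 with reads), and astrocyte cells 5972 ± 2377 RPM of oligodendrocyte lineage markers (5 of 6 with reads, Mog with none). Of the microglia markers Cx3cr1 was at 0 in microglia cells, and none of the 7 had a read in neuron cells or neuron sEVs.

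Malat1 had the most reads of the 9 RNAs over all libraries and fell in the sEVs of all 3 cell types. In astrocytes the cell libraries stood at 14242, 12592 and 13130 CPM and the sEV libraries at 3243, 1013 and 1414. In microglia the cells stood at 5712, 5208 and 2142 CPM and the sEVs at 56.2, 36.9 and 24.7. In neurons the cells stood at 13389, 6633 and 8988 CPM and the sEVs at 370, 215 and 464. Every cell library was above every sEV library of its own cell type. The log2 difference between sEVs and cells was -2.82 ± 0.49 (SE) in astrocytes, -6.79 ± 0.60 in microglia and -4.79 ± 0.54 in neurons, with adjusted p-values of 0.00052, 3.49e-06 and 4.73e-06 in edgeR's quasi-likelihood test, Benjamini-Hochberg adjusted over 8184 genes. These are falls of 7.04-fold, 111-fold and 27.6-fold. In the order of mean level, microglia cells (4354 ± 1932 CPM) and astrocyte sEVs (1890 ± 1189) were neighbours whose libraries overlapped. Microglia cells lay below neuron cells without overlap, a step that missed the threshold (-1.15, adjusted p = 0.0531) but passed it in 6 of 9 alternative settings (DESeq2 0.0401) and in 5 of 18 fits without 1 library.

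**Figure D1:**
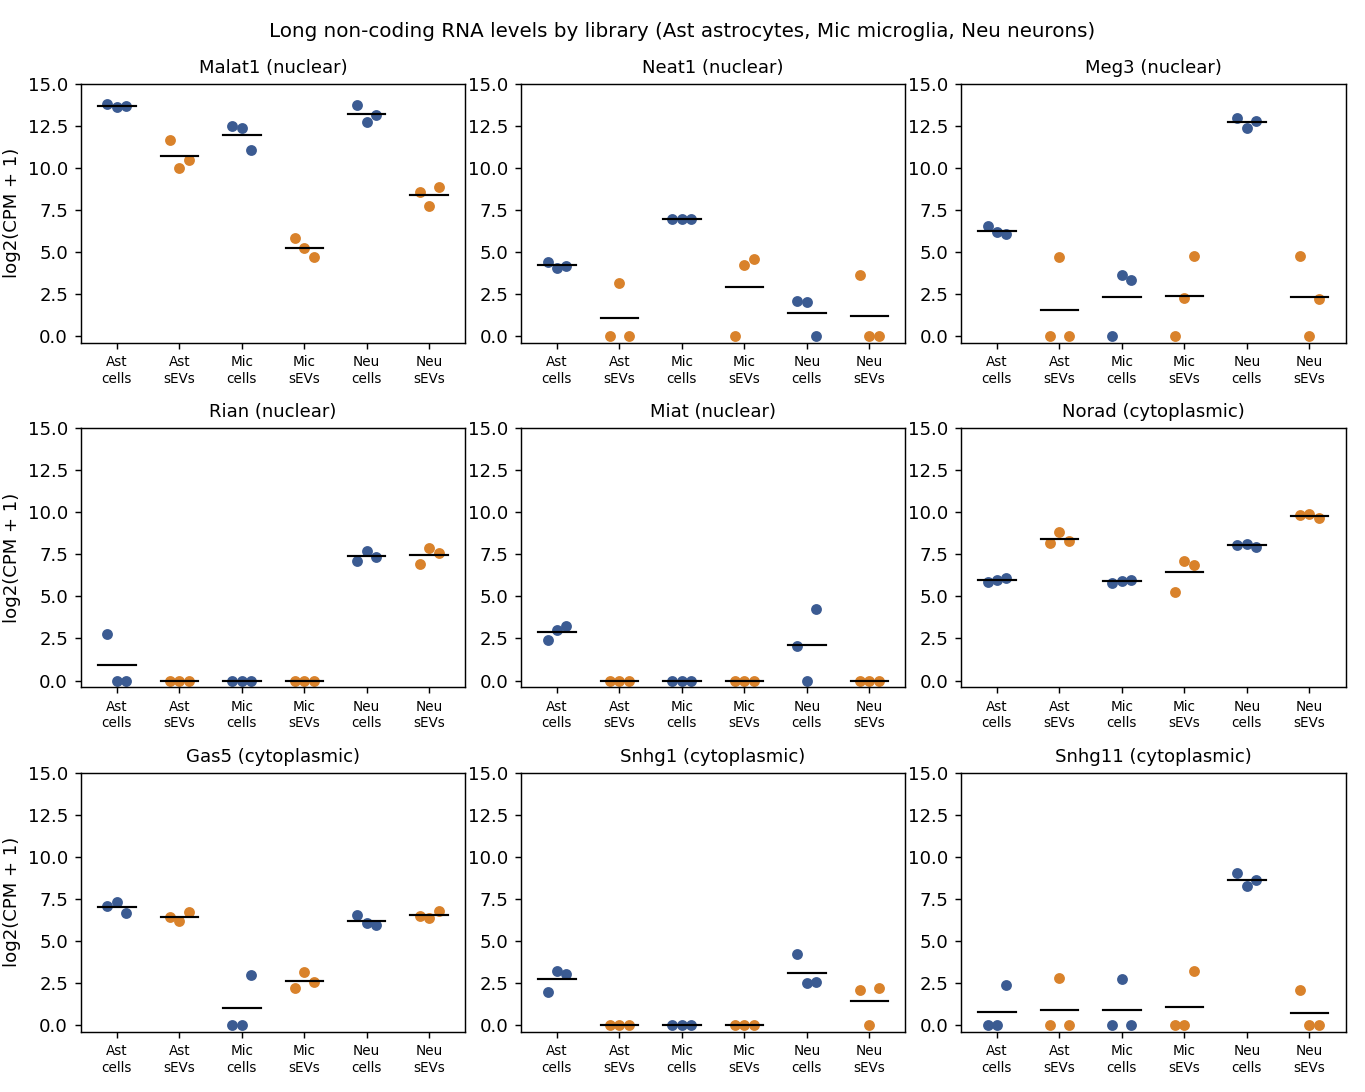
Levels of the 9 long non-coding RNAs in each library as log2(CPM + 1), with cells in blue, sEVs in orange, 3 points per group and a bar at the mean of the 3 log2 values. Malat1 points of sEVs lie below those of their own cells in all 3 cell types, Norad points of sEVs lie above them in astrocytes and neurons, and Meg3, Rian and Snhg11 are high in neuron cells, where of the 3 only Rian is also high in the sEVs.

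Meg3 was read mainly in neuron cells and had few reads in any sEV library. Neuron cells held 5142, 3424 and 4256 reads of Meg3 per library and neuron sEVs 16, 0 and 2. Astrocyte cells held 63, 51 and 46 reads and astrocyte sEVs 0, 13 and 0. Neither pair of groups overlapped. Meg3 was lower in sEVs, with a log2 difference of -9.30 ± 1.23 (SE) in neurons (adjusted p = 2.57e-05, edgeR) and of -3.34 ± 1.09 in astrocytes (adjusted p = 0.0379). The neuron call held in all 18 fits that left out 1 library. In neuron cultures the summed level of the neuron marker list was 4945 ± 500.2 RPM in cells and 1549 ± 332 in sEVs (7 of 7 with reads in both), while the astrocyte markers stood at 3206 ± 245 and 3178 ± 621 RPM, and the part of this in the fall of Meg3, and of Snhg11 below, was not tested. The astrocyte call was lost in 10 of these 18 fits, with adjusted p-values up to 0.121: without any 1 of the 3 astrocyte cell, 3 neuron cell, first or the third astrocyte sEV, or the second or the third microglia cell libraries. It was also lost in 6 of 10 alternative settings: by DESeq2 (adjusted p = 0.187), with isoforms seen in 2 or more libraries (0.0650), with the replicate block (0.0610), with 2 groups in the fit (0.0972), without intron-retaining isoforms (0.0918) and without the first astrocyte and first neuron sEV libraries, both rich in the predicted gene Gm42047 (0.0831). In microglia the reads were 0, 4 and 4 in cells and 0, 2 and 16 in sEVs, with a log2 difference of 0.53 and a 95% interval from -2.17 to 3.24.

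Rian lies downstream of Meg3 in the same imprinted cluster and is known for the snoRNAs in its introns. A RefSeq table of build GRCm38.p6 places 11 snoRNA genes and the microRNA genes Mir341, Mir370 and Mir1188 inside its span on chromosome 12, and Mir770 and Mir1906-1 inside Meg3. Neuron cells held 86, 135 and 98 reads of Rian and neuron sEVs 74, 113 and 106, and these ranges overlapped. The log2 difference was 0.13 ± 0.61 (SE), with a 95% interval from -1.07 to 1.32 and an adjusted p of 0.936 (edgeR). Outside neurons there were 4 reads, all in 1 astrocyte cell library. Meg3 thus had between 25.4 and 59.8 reads per read of Rian in neuron cells and between 0 and 0.216 in neuron sEVs, and these ratios did not overlap. In these bulk libraries fewer cells or vesicles of a type and less RNA in each cannot be told apart.

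Neat1 had its most reads in microglia. Microglia cells held 39, 44 and 53 reads and microglia sEVs 0, 9 and 14. Astrocyte cells held 14, 11 and 12 reads and astrocyte sEVs 0, 4 and 0. Cells and sEVs did not overlap in CPM in either cell type, but neither difference passed the test: -3.17 ± 1.18 on the log2 scale in microglia (adjusted p = 0.0956, edgeR) and -2.85 ± 1.35 in astrocytes (adjusted p = 0.151). In microglia the call appeared in 3 of 10 alternative settings: with no filter (adjusted p = 0.0230), with 2 groups in the fit (0.0269) and without both libraries rich in Gm42047 (0.0405). In astrocytes it appeared without the second sEV library (-6.43, adjusted p = 0.0323). In neurons there were 4 reads in cells and 7 in sEVs. Miat had 27 reads in all, 3, 5 and 6 in astrocyte cells and 2, 0 and 11 in neuron cells, with 0 in every microglia and sEV library. It did not pass the filter on low counts and was not tested.

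Norad moved the other way. Astrocyte cells stood at 57.3, 60.9 and 66.4 CPM and astrocyte sEVs at 289, 450.1 and 309.5. Neuron cells stood at 260.2, 279 and 246 CPM and neuron sEVs at 902, 935 and 793. All sEV libraries of these 2 cell types were above all of their cell libraries. Norad was 5.66-fold higher in astrocyte sEVs (2.50 ± 0.35 on the log2 scale, adjusted p = 6.83e-05, edgeR) and 3.35-fold higher in neuron sEVs (1.74 ± 0.33, adjusted p = 0.000684). In microglia the cells stood at 54.3, 59.5 and 61.8 CPM and the sEVs at 38.1, 138 and 117, so that the first sEV library lay below all cell libraries and the other two above them. That difference was 0.73 ± 0.36 with an adjusted p of 0.215, and it passed without the first sEV library (1.11, adjusted p = 0.0126).

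Malat1 and Norad are both read as single-exon transcripts, and setting one against the other within a library takes library size out of the comparison. Astrocyte cells had between 198 and 248 reads of Malat1 per read of Norad and astrocyte sEVs between 2.25 and 11.2. Microglia cells had between 34.7 and 105 and microglia sEVs between 0.211 and 1.48. Neuron cells had between 23.8 and 51.4 and neuron sEVs between 0.230 and 0.585. In each cell type the ranges of cells and sEVs were apart, by a mean of -5.48, -7.29 and -6.54 on the log2 scale in astrocytes, microglia and neurons. An exact two-sided permutation test of 3 libraries against 3 gave p = 0.1 for each, which is the smallest value it can give, also after Benjamini-Hochberg adjustment over 6 such tests. The ratio joins the fall of Malat1 and the rise of Norad given above, so it restates them and is not separate support. In microglia only Malat1 was called.

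**Figure D2:**
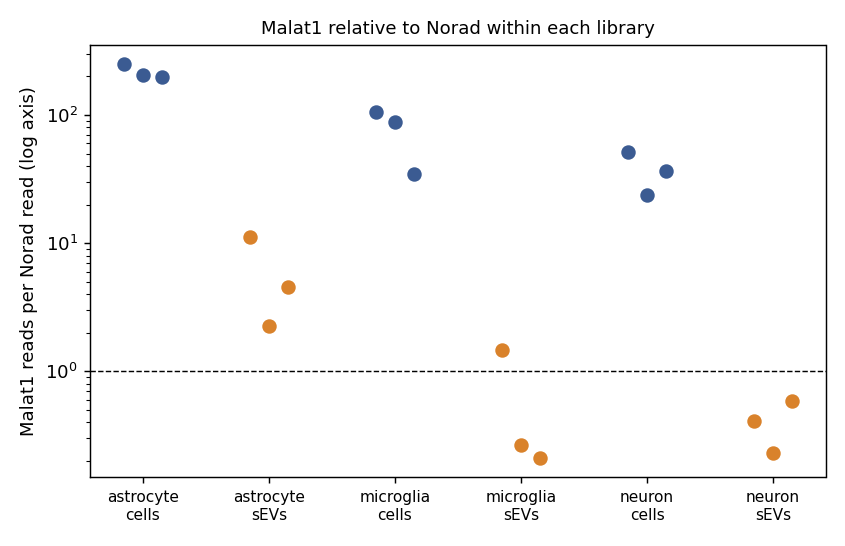
Reads of Malat1 per read of Norad within each of the 18 libraries, on a log axis, with cells in blue, sEVs in orange and a dashed line at 1 read of each. All 9 cell libraries lie at 23.8 or above, the astrocyte sEV libraries between 2.25 and 11.2, and all 3 neuron and 2 of 3 microglia sEV libraries below 1.

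The total of Gas5 was not called between sEVs and cells, while the isoforms behind it were mostly intron-retaining in cells and fully spliced in sEVs. Astrocyte cells held 92, 116 and 72 reads of Gas5 and astrocyte sEVs 65, 37 and 73. Neuron cells held 58, 43 and 37 reads and neuron sEVs 53, 39 and 61. Cells and sEVs overlapped in both cell types, with log2 differences of -0.60 (95% interval from -1.46 to 0.27, adjusted p = 0.381, edgeR) in astrocytes and 0.35 (from -0.52 to 1.23, adjusted p = 0.596) in neurons. Microglia had 3 reads of Gas5 in cells and 9 in sEVs. RefSeq lists 8 snoRNA genes inside Gas5 on chromosome 1, and reads that keep an intron of such a gene have not been fully spliced.

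The start sites are shown because the TOP tract is the feature by which Gas5 is known to resemble ribosomal protein genes. Each line runs from 10 bases before the RefSeq start to 50 bases from it on the gene's strand (build GRCm38.p6), with the pyrimidine run that begins at the start in capitals. They are Gas5 at chr1:161034591-161034650 (plus strand) and at chr1:161035156-161035215 (plus strand), Snhg1 at chr19:8723477-8723536 (plus strand), Snhg11 at chr2:158375703-158375762 (plus strand), Miat at chr5:112228899-112228958 (minus strand) and Malat1 at chr19:5802623-5802682 (minus strand).
Gas5, first start: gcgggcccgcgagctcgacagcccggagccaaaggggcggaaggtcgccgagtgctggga
Gas5, second start: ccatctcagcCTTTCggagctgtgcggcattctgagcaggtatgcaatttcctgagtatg
Snhg1: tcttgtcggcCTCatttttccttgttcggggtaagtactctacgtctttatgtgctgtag
Snhg11: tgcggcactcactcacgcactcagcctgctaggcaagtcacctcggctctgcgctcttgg
Miat: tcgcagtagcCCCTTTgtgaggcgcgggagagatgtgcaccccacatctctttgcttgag
Malat1: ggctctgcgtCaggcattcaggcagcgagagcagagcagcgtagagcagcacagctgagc
A start of C followed by at least 4 pyrimidines was found at the second Gas5 start and at Miat, and at none of the other member starts in the table, those of Meg3 and Rian included. The same letters stood at 2.51% of 32851 RefSeq starts, and at any start of 4 of 15 listed TOP protein-coding genes with an entry, against 3.01% of all genes. A match describes the letters in this window only.

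Introns were kept in most Gas5 reads of cells and in few of sEVs. In astrocyte cells 56 of 92, 78 of 116 and 45 of 72 reads of Gas5 belonged to isoforms marked as intron-retaining, and in astrocyte sEVs 0 of 65, 0 of 37 and 4 of 73. In neuron cells the counts were 35 of 58, 24 of 43 and 18 of 37, and in neuron sEVs 0 of 53, 0 of 39 and 0 of 61. As a share of the library's Gas5 reads this was 63.5% ± 3.31 (SD, n = 3) in astrocyte cells against 1.83% ± 3.16 in their sEVs. It was 54.9% ± 5.90 in neuron cells against 0% in their sEVs. There 0 of 153 pooled reads has an exact interval up to 2.38%, which covers counting error only. Single reads of an isoform can be hidden in a 0, so the share may lie above this. The fractions did not overlap in either cell type, and the exact permutation test gave its smallest value, p = 0.1, in each. Over all genes the share of such reads was 1.78% to 3% in the 9 cell libraries and 1.19% to 2.64% in the 9 sEV libraries. Without the intron-retaining isoforms Gas5 stood at 32.2 ± 3.70 CPM in neuron cells and 92.9 ± 13.8 in neuron sEVs, a log2 difference of 1.49 (adjusted p = 0.0348, edgeR). This setting was chosen after seeing the data and takes reads from the cell side alone, so it restates the intron shares and is not separate support. In astrocytes it was 0.82 (adjusted p = 0.277, from 47.5 ± 8.08 to 84.9 ± 13.6 CPM).

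Cells also spread Gas5 over more isoforms, between 12 and 22 per astrocyte or neuron cell library against 2 or 3 per sEV library. Nearly all sEV reads fell on a pair of fully spliced isoforms, numbered 821 and 823 in the table, of which the second differs from the annotation at its 5′ end. Isoform 821 had 4, 10 and 16 reads in astrocyte cells, 48, 26 and 45 in astrocyte sEVs, 3, 2 and 0 in neuron cells and 13, 13 and 32 in neuron sEVs. Isoform 823 had 2, 4 and 7 reads in astrocyte cells, 17, 11 and 24 in astrocyte sEVs, 4, 3 and 2 in neuron cells and 40, 26 and 29 in neuron sEVs. Both passed the filter on low counts only through sEV groups, where they are high. Their rise in neurons is therefore given as reads with no test. In astrocytes neither was called (1.89 each, adjusted p = 0.215 and 0.0920, edgeR). Isoform 821 had more reads than 823 in every astrocyte sEV library, while in neuron sEVs 823 had more in 2 of 3, a contrast between cell types that was not tested.

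Rian, whose total was not called either, also kept introns in cells. In neuron cells 43 of 86, 83 of 135 and 49 of 98 reads of Rian belonged to intron-retaining isoforms, 53.8% ± 6.63 (SD, n = 3). In neuron sEVs 0 of 293 pooled reads did, with an exact interval up to 1.25% under the same limits as for Gas5. The leading intron-retaining isoform, number 52974, had 43, 53 and 45 reads in neuron cells and 0 in sEVs. A spliced isoform with another 5′ end, number 4334, had 0 reads in neuron cells and 13, 24 and 24 in neuron sEVs. Each passed the filter on low counts only through the group where it is high, so these are given as reads with no test. The most counted isoform, 52977, matches the annotation and had 18, 38 and 21 reads in neuron cells and 16, 75 and 52 in neuron sEVs. For isoform usage Rian was called between neuron sEVs and cells (adjusted p = 0.0220, Simes test of edgeR's diffSpliceDGE), where 2% of 1752 genes were. The test draws on these same 3 isoforms, so it restates their reads and is not separate support. That call was lost in 11 of 18 fits that left out 1 library, among them each neuron library, with adjusted p-values up to 0.221. Without its intron-retaining isoforms Rian stood 1.24 higher in sEVs on the log2 scale, which did not pass the test (adjusted p = 0.197).

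**Figure D3:**
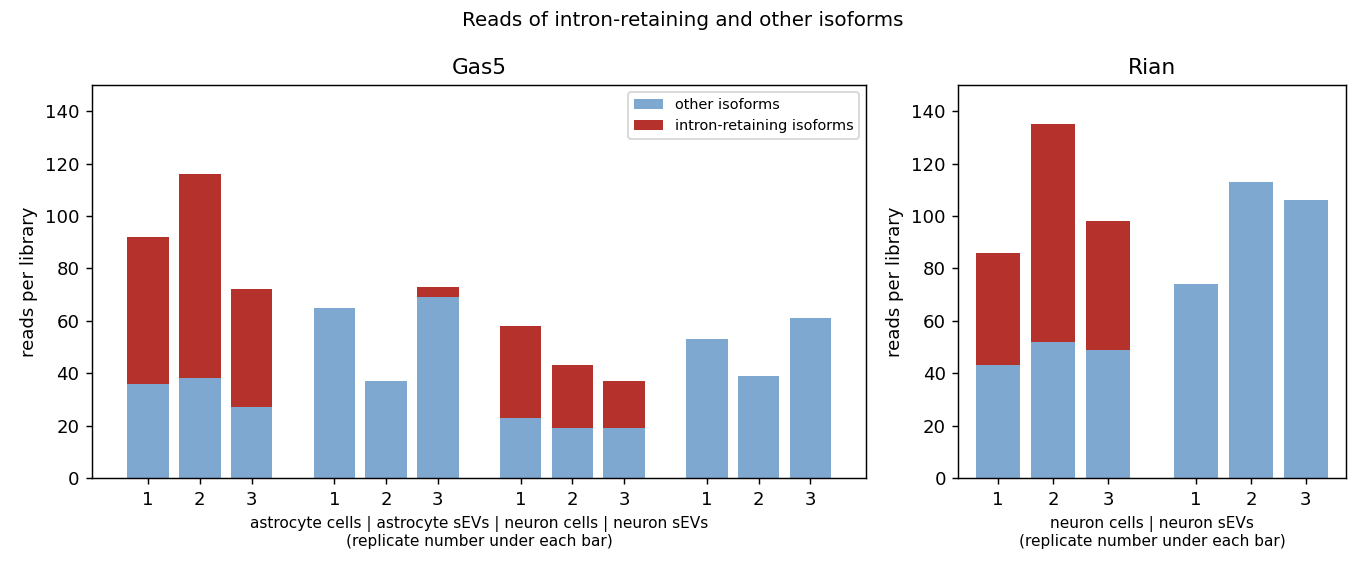
Reads of Gas5 (left, astrocyte and neuron libraries) and Rian (right, neuron libraries) per library, stacked by isoforms marked as intron-retaining (red) and all others (blue), with the replicate number under each bar. Red makes up 48.6% to 67.2% of each Gas5 bar and 50% to 61.5% of each Rian bar in cells, and in sEVs it appears only as 4 reads of Gas5 in the third astrocyte library.

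Snhg11 was read almost wholly in neuron cells. Neuron cells held 330, 199 and 242 reads and neuron sEVs 2, 0 and 0, while all other libraries held between 0 and 5. Snhg11 passed the filter on low counts only through neuron cells, where it is high. Its fall is therefore given as reads, and its calls below are descriptions. The read totals of 771 and 2 give a ratio of 333 with a counting interval from 91.9 to 2757. Its leading isoform, 33625, had 284, 161 and 205 reads in neuron cells, and the second, 56073, had 30, 25 and 16, with 0 in every sEV library. Of the 771 reads of neuron cells 3 kept an intron. Snhg1 had 34 reads in all, 2, 6 and 5 in astrocyte cells, 11, 3 and 3 in neuron cells, 2, 0 and 2 in neuron sEVs and 0 elsewhere. It did not pass the filter and was not tested, and 4 of its 13 reads in astrocyte cells and 3 of its 17 in neuron cells kept an intron.

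Counted by class, the nuclear RNAs fell more often than they rose and the cytoplasmic RNAs were mixed. Of the 9 members 7 passed the filter on low counts, 4 of 5 nuclear and 3 of 4 cytoplasmic. In astrocytes 3 members were called, Malat1 and Meg3 lower and Norad higher, where 20.3% of all tested genes were called (8.04% higher and 12.2% lower). In microglia 1 was called, Malat1 lower, where 11.9% of genes were (2.7% higher and 9.18% lower). In neurons 4 were called, Malat1, Meg3 and Snhg11 lower and Norad higher, where 31.4% of genes were (13.6% higher and 17.8% lower). Snhg11 passed that filter only through neuron cells, so its call is a description. As a mean of the 3 cell types, Malat1 (-4.80 ± 0.31 on the log2 scale) and Meg3 (-4.04 ± 0.81) were lower and Norad (1.66 ± 0.20) higher in sEVs, with adjusted p-values of 3.35e-09, 0.000765 and 3.84e-06 (edgeR), where 33.9% of genes were called (14.5% higher and 19.5% lower). For Meg3 this mean joins -9.30 in neurons and 0.53 in microglia, and over full-splice matches alone its call was lost (adjusted p = 1). No nuclear member was called higher in any cell type. The median log2 difference of the tested nuclear members was -3.07 in astrocytes, -1.58 in microglia and -2.33 in neurons, and -2.85 and -3.17 in astrocytes and microglia with Rian, which had at most 4 reads there, left out. For the cytoplasmic members it was 0.15, 0.73 and 0.35, and for all tested genes 0, 0 and -0.10. The cytoplasmic medians keep members with few reads. The 0.15 in astrocytes is the value of Snhg11, with 3 reads in cells and 3 in sEVs. In microglia Gas5 had 3 reads in cells and 9 in sEVs, and Snhg11 2 and 5. The neuron median does not show the fall of Snhg11, from 771 reads to 2.

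Read by read, the nuclear RNAs made up between 94.9% and 99.1% of the member reads of each cell library. In sEVs they made up between 66.5% and 89.7% in astrocytes, between 28.6% and 57.4% in microglia and between 30.8% and 42.0% in neurons. Malat1 holds most of these reads. Without it the nuclear share was 28.8% to 38.5% in astrocyte cells and 0% to 5.88% in their sEVs, 65.5% to 69.6% and 0% to 27.5% in microglia, and 89.3% to 91.0% and 13.9% to 19% in neurons. Cells and sEVs did not overlap in any of these, with and without Malat1. In neurons the gap without Malat1 rests mainly on Meg3, with 12822 reads in cells and 18 in sEVs. Rian had 319 and 293 there. The share without both Malat1 and Meg3 was not tested, so the neuron gap does not describe the nuclear RNAs as a class.

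**Figure D4:**
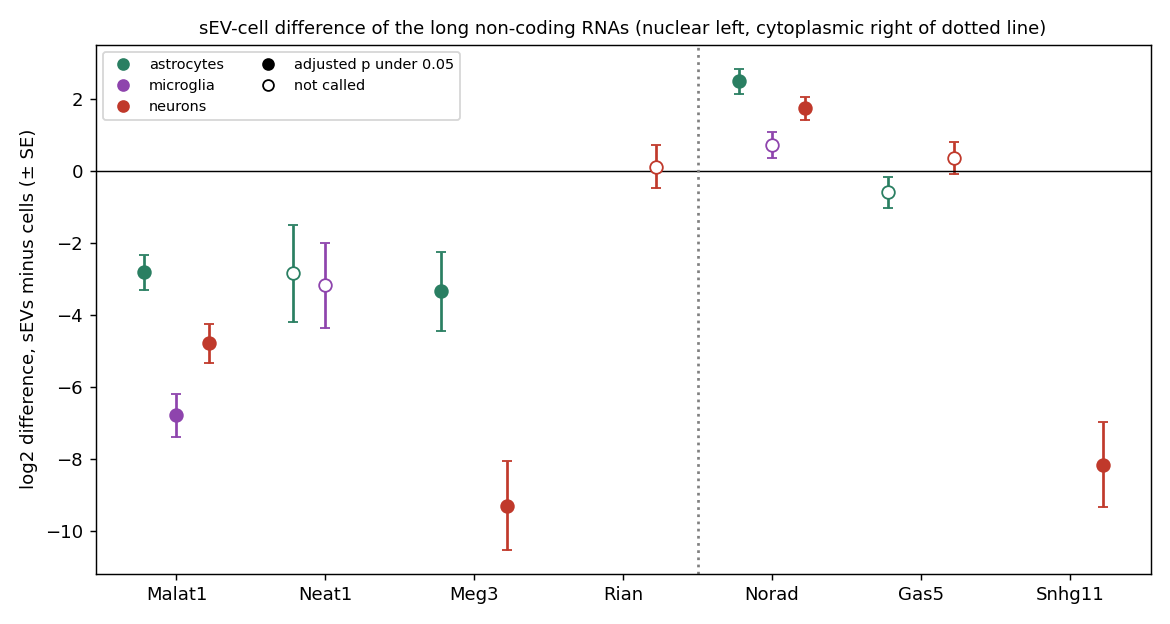
Fitted log2 difference between sEVs and cells (± SE) in astrocytes, microglia and neurons for members with at least 20 reads in one of the 2 groups, nuclear RNAs left and cytoplasmic RNAs right of the dotted line. Filled points passed an adjusted p of 0.05. Malat1 lies between -2.82 and -6.79, Norad between 0.73 and 2.50, and Rian at 0.13.

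The difference between sEVs and cells itself differed between cell types for 3 of these RNAs. For Malat1 the log2 difference between sEVs and cells in microglia minus that in astrocytes was -3.97 ± 0.69 (adjusted p = 0.00679, edgeR's interaction test), a contrast in which 1.27% of genes were called (0.452% higher and 0.819% lower). That call held in all 18 fits without 1 library (adjusted p up to 0.0265). Between microglia and neurons, where 5.14% of genes were called (1.93% higher and 3.21% lower), Meg3 differed by 9.83 ± 1.76 (adjusted p = 0.00298) and Snhg11 by 8.78 ± 2.16 (adjusted p = 0.0243). Microglia held few reads of either on both sides, 8 in cells and 18 in sEVs of Meg3 and 2 and 5 of Snhg11, so both values rest on the reads of neuron cells. Snhg11 also passed the filter on low counts only through those cells, so its call is a description. Both calls were lost without the third microglia sEV library (Meg3 then 7.49, adjusted p = 0.250, and Snhg11 4.94). The Snhg11 call was also lost without the first microglia cell (adjusted p = 0.0542), the third microglia cell (0.0571) or the first neuron cell library (0.0545). Between neurons and astrocytes 0 members were called by edgeR, where 0.477% of genes were (0.33% higher and 0.147% lower). At an unadjusted p under 0.05 there were 3, Malat1, Meg3 and Snhg11, and DESeq2 called 1 member and edgeR without the filter 3.

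Among cells the RNAs differed by cell type. Over the 3 pairs of cell types 13 member comparisons passed the test, 5 higher and 8 lower in the direction taken, where 10.4% of genes were called for neurons minus astrocytes (6.82% higher and 3.6% lower), 35.4% for microglia minus astrocytes (15.1% and 20.3%) and 43.3% for microglia minus neurons (16.6% and 26.7%). Neurons were above astrocytes in Meg3 (6.49 ± 1.05 on the log2 scale), Rian (6.32 ± 0.87), Norad (2.08 ± 0.34) and Snhg11 (288-fold by read totals, counting interval from 98.3 to 1401). Microglia were below neurons in Meg3, Rian (at least 20.2-fold), Norad, Gas5 and Snhg11, and above them in Neat1 (5.74 ± 1.40). Microglia were below astrocytes in Malat1 (-1.61 ± 0.47), Meg3 (-3.36 ± 1.18) and Gas5 (48.4-fold by read totals, counting interval from 16.4 to 236). Malat1 was not called between neuron and astrocyte cells (-0.46, adjusted p = 0.669, edgeR), whose libraries overlapped. Of these calls Malat1 between microglia and astrocytes was lost without the third microglia cell library (-1.30, adjusted p = 0.0631), and Meg3 between them was lost without any 1 astrocyte or microglia cell library (adjusted p up to 0.118). Rian and Snhg11 passed the filter on low counts only through neuron libraries, so their calls here are descriptions. The neuron cultures held 3206 ± 245 RPM of astrocyte markers, whose part in these differences was not tested.

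Among sEVs 10 member comparisons passed, 2 higher and 8 lower in the direction taken, where 14.3% (9.05% higher and 5.28% lower), 41.7% (16% and 25.7%) and 52% (19.9% and 32%) of genes were called in the same 3 pairs. Malat1 was highest in astrocyte sEVs (1890 ± 1189 CPM), then neuron (349.7 ± 126) and microglia sEVs (39.2 ± 15.9), with no overlap and all 3 steps called (adjusted p of 0.00261 or less, edgeR). Norad ran from neuron (877 ± 74.3 CPM) over astrocyte (349.7 ± 87.6) to microglia sEVs (97.5 ± 52.6), also with no overlap and all 3 called. The step from astrocyte to neuron sEVs in Norad was lost when the first astrocyte and first neuron sEV libraries, both rich in Gm42047, were left out (1.19, adjusted p = 0.0895). Rian was at least 39.3-fold higher in neuron than in astrocyte sEVs and at least 33.9-fold higher than in microglia sEVs. As among cells, these Rian calls are descriptions. Gas5 was lower in microglia sEVs (5.44 ± 2.12 CPM) than in astrocyte (86.8 ± 16.6) and neuron sEVs (92.9 ± 13.8), and the latter pair overlapped and was not called (adjusted p = 0.969).

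At the level of isoforms 29 isoforms of the members were tested. In astrocytes 1 rose and 4 fell where 15.5% of isoforms were called (3.22% higher and 12.3% lower). In microglia 1 fell where 9.36% were called (1.36% and 8%), and in neurons 4 rose and 23 fell where 27.2% were (6.26% and 20.9%). Of the 23 that fell 11 had reads in neuron cells only. Apart from Malat1 9106 and Meg3 4323, the rest had at most 27 reads in any other group. All but those named thus entered the test through the group where they are high, which makes this count a description. Of the 4 that rose, Gas5 821 and 823 and Rian 4334 passed the filter only through sEV groups, where they are high. Meg3 made up 19 of the 23, of which 9 had reads in neuron cells only and 16 had 0 reads in neuron sEVs. Its most counted isoform, number 4324, had 1891, 944 and 1649 reads in neuron cells and 10, 0 and 2 in sEVs, and the next, 4322, had 806, 618 and 762 against 4, 0 and 0. Of the Meg3 reads 57 of 160 in astrocyte cells and 837 of 12822 in neuron cells kept an intron, and of the 13, 18 and 18 reads in astrocyte, microglia and neuron sEVs 0 did. The usage of Meg3 isoforms differed in astrocytes (adjusted p = 0.0013, Simes test), which rests on the 13 reads of the second astrocyte sEV library and was lost without it. Isoform usage was called for 2% of genes there and for 2.4% in microglia, where 0 members were. Malat1, Norad and Neat1 each lay almost wholly on 1 single-exon isoform (9106, 10604 and 9108), which moved as the gene did. The count of 33 calls dropped to 16, 17 and 17 without the first, the second and the third neuron cell library and to 17 by DESeq2.

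The RNAs were then set beside genes of the same pathways. Of 17 other nuclear long non-coding RNAs 6 were tested. Pantr1 rose in neuron sEVs from 58.5 ± 6.72 to 441 ± 86.2 CPM (adjusted p = 0.000115, edgeR), as did Pvt1, the neighbour of Myc (3.29 ± 0.88, adjusted p = 0.0123), and Sox2ot, which overlaps Sox2 (1.75 ± 0.61, adjusted p = 0.0421). Pvt1 and Sox2ot are named after their values were seen. Of all tested genes 13.6% were higher in neuron sEVs. None of the 6 fell in any cell type, where 12.2%, 9.18% and 17.8% of all tested genes were lower in astrocyte, microglia and neuron sEVs. Tug1 stood at 24.4 ± 11.6 CPM in astrocyte cells and 84.4 ± 42.1 in their sEVs and was not called. Of 17 other snoRNA host genes 3 were tested. Snhg20 was lower in astrocyte sEVs (35.7 ± 14.3 CPM in cells and 0 reads in sEVs, adjusted p = 0.00109, edgeR), where 12.2% of all tested genes were lower. Snhg5 and Snhg4 were not called.

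Of 9 paraspeckle proteins, the partners of Neat1, 8 were tested, of which 4 fell in astrocyte and 3 in neuron sEVs and 0 in microglia sEVs, and 0 rose, where 12.2%, 17.8% and 9.18% of all tested genes were lower. Hnrnpk, an RNA-binding protein gene, fell from 1849 ± 121 to 893 ± 286 CPM in astrocytes (adjusted p = 0.0108, edgeR) and from 1055 ± 73.6 to 207 ± 45.6 in neurons (adjusted p = 1.12e-05). Of 12 Pumilio and decay factors 6 were tested. By cell type 1 was called, Smg9, lower in neuron sEVs (adjusted p = 0.00553, edgeR), where 17.8% of all tested genes were lower. Over the mean of cell types Pum2 (1.78 ± 0.42) and Smg6 (3.47 ± 1.09) were higher and Smg9 lower (-3.06 ± 0.67). There 14.5% of all tested genes were higher and 19.5% lower. Pum2, a Pumilio protein that Norad binds, stood at 28.3 ± 8.34 CPM in astrocyte cells and 122 ± 92.1 in their sEVs (adjusted p = 0.0524). Of the other 4 genes listed for the imprinted locus 3 were found, and 0 passed the filter on low counts.

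The 24 protein-coding genes listed as TOP genes, mostly of ribosomal proteins and elongation factors, all passed the filter. In astrocyte sEVs 18 were higher, in microglia 4 and in neurons 22, where 8.04%, 2.7% and 13.6% of all tested genes were, and 0 were lower in any. Their median log2 difference was 1.45, 0.52 and 2.58. Rplp0, a ribosomal stalk protein gene, rose from 753 to 4143 CPM in astrocytes and from 1007 to 12931 in neurons. Gas5 as a total, at -0.60 in astrocytes and 0.35 in neurons, lay below these medians. Without its intron-retaining isoforms it stood at 0.82 and 1.49, also below them. That setting was chosen after seeing the data, and its astrocyte value was not called.

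**Figure D5:**
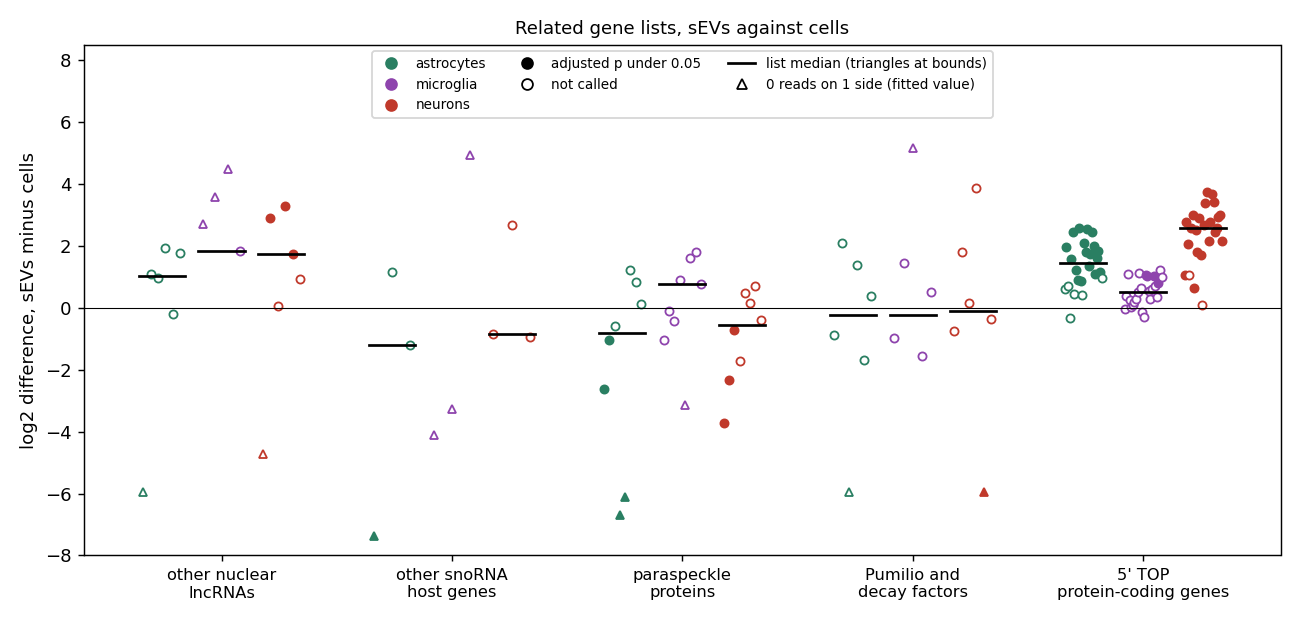
Fitted log2 difference between sEVs and cells for each tested gene of 5 related lists in astrocytes, microglia and neurons, with filled points for an adjusted p under 0.05 and a bar at the list median. Triangles mark genes with 0 reads in one of the 2 groups, whose fitted value is no bound and which enter the median at their bound, and genes with 0 reads in both are left out. The TOP genes lie mostly above 0, with medians of 1.45, 0.52 and 2.58.

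By correlation of log2 CPM over all 18 libraries, the 3 genes most like Malat1 among 7952 were Emc7, Sumf2 and Pigs (Pearson's r from 0.906 to 0.913), genes of proteins that work in the endoplasmic reticulum. For Meg3 they were Scn3b, Lrrtm1 and Dpp6 (0.952 to 0.955), genes of neuronal membrane proteins. For Norad they were Necab2, Inpp5f and Homer2 (0.944 to 0.960) and for Gas5 Pfn2, Zfp428 and Tagln3 (0.970 to 0.976). These are descriptions over 18 points that share group, pool and scaling.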

How the data were processed

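The deposited table holds whole-number counts of full-length reads per isoform, made by the authors. Reads were mapped with minimap2 to GRCm39, per the submitters' processing notes; for the isoform caller, annotation and versions: not given in the sources used here. Isoform counts were summed per gene label and fitted over all 18 libraries with edgeR 4.0.16 in R 4.3.3 (filterByExpr by group with a minimum count of 10, TMM, quasi-likelihood test), with Benjamini-Hochberg adjustment at 0.05 over 8184 genes or 9370 isoforms. Isoform usage was tested with diffSpliceDGE. DESeq2 1.42.0, other scalings and filters, a replicate block and leaving out each library were alternatives. "At least" bounds take 3 reads per library as the floor; exact intervals are at 95%, and without molecular identifiers both cover counting error only. Whether replicates came from separate cultures is not in the labels, and a p-value here reflects the spread of these libraries alone, which may be technical. In simulated astrocyte data 73% of 8-fold and 21% of 4-fold changes were recovered. The simulation gave all genes the same spread and changed only genes with a higher mean of reads. Its rates therefore do not cover members with few reads. Intron-retaining means so marked in the table. The members and lists were chosen with earlier results of these data known. Named were all 9 members, at most 4 genes per list by smallest adjusted p over the mean of cell types, and the 3 genes most correlated with each of 4 members, passing over predicted genes. Start windows and snoRNA positions are from RefSeq (GRCm38.p6), and Norad and Neat1 were not matched there.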

Additional observations from a re-analysis of the deposited data

Results flagged for a closer look

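For 3 RNAs the log2 difference between sEVs and cells differed between cell types by edgeR's interaction test with Benjamini-Hochberg adjustment. For Malat1 it was -3.97 in microglia minus astrocytes (adjusted p = 0.00679), from -6.79 and -2.82. For Meg3 it was 9.83 in microglia minus neurons (adjusted p = 0.00298), from 0.53 and -9.30, and without the third microglia sEV library 7.49 (adjusted p = 0.250). For Snhg11 it was 8.78 in microglia minus neurons (adjusted p = 0.0243), where microglia held 2 reads in cells and 5 in sEVs, all 5 in the third library, without which it was 4.94. This call is a description, as Snhg11 passed the filter on low counts only through neuron cells.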

How the results depend on the processing

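Neurons kept 4 members called in every fit that left out 1 library; the range was 2 to 4 in astrocytes, 1 to 2 in microglia, 3 to 5 for the mean of cell types, 1 to 3 for the differences between cell types, 11 to 15 among cells, 10 to 11 among sEVs, 16 to 32 for isoforms (33 with all) and 1 to 2 for isoform usage. In microglia 2 members were called, in place of 1, without TMM, without a filter, with 2 groups in the fit and, an alternative chosen after seeing the data, without both libraries rich in Gm42047. Without a filter 5 were called for the mean and 8 for the differences between cell types (6 by DESeq2), in place of 3 each; the cause was not tested. Isoform calls numbered 17 by DESeq2. Replicate numbers were shared between groups, and whether they pair the samples was not settled. Cells and sEVs of the same number had r from -0.0815 to 0.0795. The highest r with another number ran from -0.0254 to 0.0734. The same-number value was the higher in all neuron replicates and the lower in astrocyte replicates 2 and 3 and microglia replicate 2. With the replicate block isoform calls numbered 19 and usage calls 1. Meg3 in astrocytes (adjusted p = 0.061) and between microglia and astrocyte cells (0.051) was then lost (edgeR). Signs turned for differences not called: Rian in neurons at -0.25 without TMM, -0.12 with isoforms seen in 2 or more libraries, and -0.13 to 0.34 without 1 library; Gas5 at -0.018 in neurons without TMM, and in astrocytes at 0.86 over full-splice matches and 0.82 without intron-retaining isoforms, the latter chosen after seeing the data. Without TMM the median gene moved from -0.10 to -0.47 for neuron sEVs minus cells, from 0 to 0.14 for microglia and from -0.52 to -1.32 for microglia minus astrocyte cells (log2). Of the single-member values under alternatives 1326 kept direction and side of the threshold, 33 lost the call, 24 gained it and 8 turned sign. Depth limits Miat and Snhg1, with 27 and 34 reads in all.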
